A study of Mus musculus with 8 samples.

Results

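The paraoxonases are a family of 3 genes in the mouse, Pon1, Pon2 and Pon3, which lie side by side on chromosome 6. They were taken from the count table by symbol, and all 3 were found among its 55416 rows. Liver RNA was sequenced from 8 mice, 4 of genotype Sost-/- and 4 of genotype SostPB/-, all kept on the MCD diet, in its usual sense a diet lacking methionine and choline that brings on steatohepatitis. The question of the series is what overexpression of Sost, which encodes the Wnt inhibitor sclerostin, does to steatohepatitis. What PB means and which group overexpresses Sost are not in the labels, and both genotypes carry at least 1 null allele by their names. No mouse with 2 normal alleles or on a normal diet is among the groups, and age and sex are not stated for the mice.

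Paraoxonases are calcium-dependent enzymes that open lactone rings and, to differing degrees, split esters such as paraoxon, the toxic product of an insecticide that gave the family its name. Pon1 is made in the liver, is secreted and travels in blood on high density lipoprotein (HDL), where it limits the oxidation of lipids and can hydrolyse homocysteine thiolactone. Pon3 is also made mainly in the liver and can ride on HDL, and it is a strong lactonase. Pon2 is not secreted, sits in cell membranes and is made in many tissues.

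The 3 genes lie on the minus strand of chromosome 6 in the assembly GRCm38. Pon1 (ENSMUSG00000002588.14) spans 5168090 to 5193946, Pon3 (ENSMUSG00000029759.10) 5220852 to 5256286, and Pon2 (ENSMUSG00000032667.18) 5264147 to 5298455. The cluster covers 130.4 kb, with 26.9 kb between Pon1 and Pon3 and 7.86 kb between Pon3 and Pon2. Each gene has 9 coding exons in GENCODE M21. The coding sequences hold 1065, 1062 and 1062 bases without the stop codon in Pon1, Pon2 and Pon3. Aligned in pairs, 67.0% of bases were identical between Pon1 and Pon2, 66.3% between Pon2 and Pon3, and 63.2% between Pon1 and Pon3. The longest stretch shared without a mismatch between whole transcripts was 23 bases for Pon1 and Pon2, 14 for Pon2 and Pon3, and 12 for Pon1 and Pon3. The longest of these is shown because it bears on whether reads of one gene could be counted for another. It lies in exon 6 of both genes, at chr6:5177276-5177298 in Pon1 and chr6:5269044-5269066 in Pon2 (GRCm38, minus strand, from GENCODE M21).
Stretch shared by Pon1 and Pon2: aatgttgtttactacagtccaga
Neither the read length nor the counting strand is stated in the sources used here. In M21 a single other gene overlaps the exons of the family, Gm44424 on the opposite strand of Pon2, over 680 bases, and its row had a mean of 21.9 counts against 3655 in the row of Pon2.

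The sequences just before the start of each gene differ in base composition and are shown to set the 3 start regions side by side. They come from RefSeq on GRCm38.p6 and are read 5′ to 3′ on the minus strand. They lie upstream of the gene start in both RefSeq and GENCODE M21, and each ends just before the M21 start. For Pon1 the 250 bases before the RefSeq start are printed in full. For Pon2 and Pon3 only the first 135 and 197 of them are printed, which stop short of the RefSeq start. Capitals mark each CG dinucleotide. The Pon1 window is chr6:5193947-5194196, the Pon3 window chr6:5256287-5256483 and the Pon2 window chr6:5298456-5298590.
Pon1: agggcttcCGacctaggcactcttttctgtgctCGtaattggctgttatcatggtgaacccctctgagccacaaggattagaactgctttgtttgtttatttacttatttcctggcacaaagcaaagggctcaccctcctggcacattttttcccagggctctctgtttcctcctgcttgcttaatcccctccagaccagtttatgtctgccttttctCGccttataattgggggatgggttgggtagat
Pon3: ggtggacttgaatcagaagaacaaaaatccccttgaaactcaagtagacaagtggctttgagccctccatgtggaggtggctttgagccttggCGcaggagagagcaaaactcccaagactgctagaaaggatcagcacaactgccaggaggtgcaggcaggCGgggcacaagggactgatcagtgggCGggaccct
Pon2: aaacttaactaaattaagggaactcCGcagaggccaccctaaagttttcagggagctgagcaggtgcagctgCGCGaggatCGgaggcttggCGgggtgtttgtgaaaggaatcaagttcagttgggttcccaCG
Over the full 250 bases before the RefSeq start, Pon1 held 3 CG dinucleotides and Pon3 held 6, where the median of 32851 such windows was 6. Pon2 held 24, more than 88.0% of the windows. The share of G and C was 47.6% for Pon1, 56.8% for Pon3 and 65.6% for Pon2, against a median of 52.4%. In the shorter stretches printed, Pon2 held 6 CG dinucleotides and Pon3 held 3, with a G and C share of 52.6% and 54.8%. The rest of the Pon2 and Pon3 windows, with most of the CG dinucleotides of Pon2, lies inside the genes by GENCODE M21. Both strands of these 250 bases were searched for 6 motifs. CCAAT, the CCAAT box, occurred in Pon1 at bases 38 and 228 counted from the 5′ end of the window, on the other strand both times, and is present in 33.8% of all windows. GGGCGG, the GC box, occurred 3 times in Pon2, outside the stretch printed, and once in Pon3, and is present in 32.7% of windows. GCGTG, the core of the aryl hydrocarbon receptor element, occurred once in Pon2 and in 28.2% of windows. TATAAA, the TATA box (12.4% of windows), TGACTCA (4.46%), the AP-1 site, and the direct repeat bound by nuclear receptors of the PPAR kind (0.0335%) were in none of the 3 windows.

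Over most of the deposited table row names could not be relied on, since several abundant liver genes were nearly empty in the rows that bear their names. Albumin (Alb) had 43.8 counts on average, Apoa1 4.25, and Ttr, Ahsg and Cyp2e1 held 0, although Serpina1a had 6840.4 and the endothelial gene Stab2 8029. The cluster lies in a stretch, 3.5 to 30.9 Mb of chromosome 6, that was chosen because names fit the counts there. The values that follow come from the same counts, so they describe the stretch and are no independent check of the names. Of the protein-coding rows there, 70 of 124 (56.5%) had a mean of 100 counts or more, against 3280 of 21341 (15.4%) outside this stretch and 2 further ones on chromosomes 4 and 15. Within 1 Mb of the cluster 6 of the 9 other protein-coding rows reached that mean. When the exons of the 200 rows around the cluster were moved along the chromosome by multiples of 50 bp to at most 1.5 Mb in either direction, the log count correlated best with the overlap with protein-coding exons at a shift of 0 bp (r = 0.64 across rows, which are not independent). Beyond 1 kb the best value was 0.58. The row named Sost, on chromosome 11, lies outside the stretches and held 0 counts in all 8 libraries. In 1 library, 0 counts allow an expected count of up to 3 for that row. Since row names could not be relied on there, the row sets no bound on Sost itself and does not check the genotype labels. Total counts ran from 9578086 to 14932773 per library, and mitochondrial transcripts took 47.4% to 64.3% of them. In bulk liver RNA, fewer cells of a type and less RNA per cell cannot be told apart.

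All 3 paraoxonases were read deeply, and Pon1 took most of the counts of the family in every library. Values by library are listed here and below in the order of the replicate numbers, 1 to 4. In the Sost-/- livers the counts of Pon1 were 26989, 19397, 20334 and 17933, and in the SostPB/- livers 17509, 27897, 18691 and 15552. Those of Pon3 were 5852, 4164, 3190 and 3778 against 2856, 4962, 3263 and 3608. Those of Pon2 were 4733, 3798, 3698 and 3898 against 3103, 4397, 2721 and 2889. The counts of all 3 genes went with the depth of the library in part, since Sost-/- replicate 1 and SostPB/- replicate 2 were the deepest libraries and had the highest counts of their groups for each gene. Of all counts on the 3 rows, Pon1 took 70.03% to 75.7%, Pon3 11.7% to 16.4% and Pon2 11.03% to 15.2% over the 8 libraries. The share of Pon1 was 71.9% ± 2.03 in Sost-/- and 73.9% ± 2.32 in SostPB/- (SD, n = 4), that of Pon3 14.3% ± 1.76 and 13.8% ± 1.81, and that of Pon2 13.8% ± 1.08 and 12.3% ± 1.06. None of these differences passed the test (exact permutation tests, two-sided, unadjusted p = 0.286 for Pon1, 0.657 for Pon3 and 0.114 for Pon2).

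Levels of different genes can be set side by side only per length. CPM, the counts after scaling of each library by the TMM method of edgeR, were divided by the length of all annotated exons, 2898 bases for Pon1, 3385 for Pon3 and 7339 for Pon2. On that scale Pon1 stood at 628 ± 83.0 CPM per kb, Pon3 at 103 ± 15.9 and Pon2 at 44.0 ± 2.65 (SD, n = 8 libraries). The level of Pon1 ran from 532 to 750.3, that of Pon3 from 79.8 to 130.3 and that of Pon2 from 39.5 to 48.6 CPM per kb, so the ranges of the genes did not overlap. Among the 124 protein-coding rows of the stretch, Pon1 ranked 1, Pon3 11 and Pon2 21 by mean count per length of exons. Ranks by count per length, here and below, use the mean of the counts without scaling of libraries. Pon1 was 6.10-fold above Pon3 (log2 ratio 2.61 ± 0.21 SD) and 14.2-fold above Pon2 (3.83 ± 0.18), and Pon3 was 2.33-fold above Pon2 (1.22 ± 0.20). Each order held in 8 of 8 libraries (exact sign-flip permutation tests, two-sided, n = 8, p = 0.00781 in each of 3 pairs and after adjustment, which is the smallest p that 8 libraries can give). Pon1 led the family with each of the 4 lengths used, but the gap between Pon3 and Pon2, and the rank of Pon1 in the stretch, depended on the length. With the longest transcript as the length Pon3 was 1.51-fold above Pon2. With the transcript of the longest coding sequence as the length (1513, 1837 and 2409 bases for Pon1, Pon3 and Pon2), a choice made after seeing the data, Pon3 was 1.41-fold above Pon2. With the coding sequence alone Pon3 and Pon2 were 1.07-fold apart, Pon3 was higher in 5 of 8 libraries, and they did not differ beyond their spread (exact sign-flip permutation test, adjusted p = 0.195). Pon1 was then 5.21-fold above Pon3 and 5.59-fold above Pon2, and ranked 3 of 124 in the stretch.

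**Figure D1:**
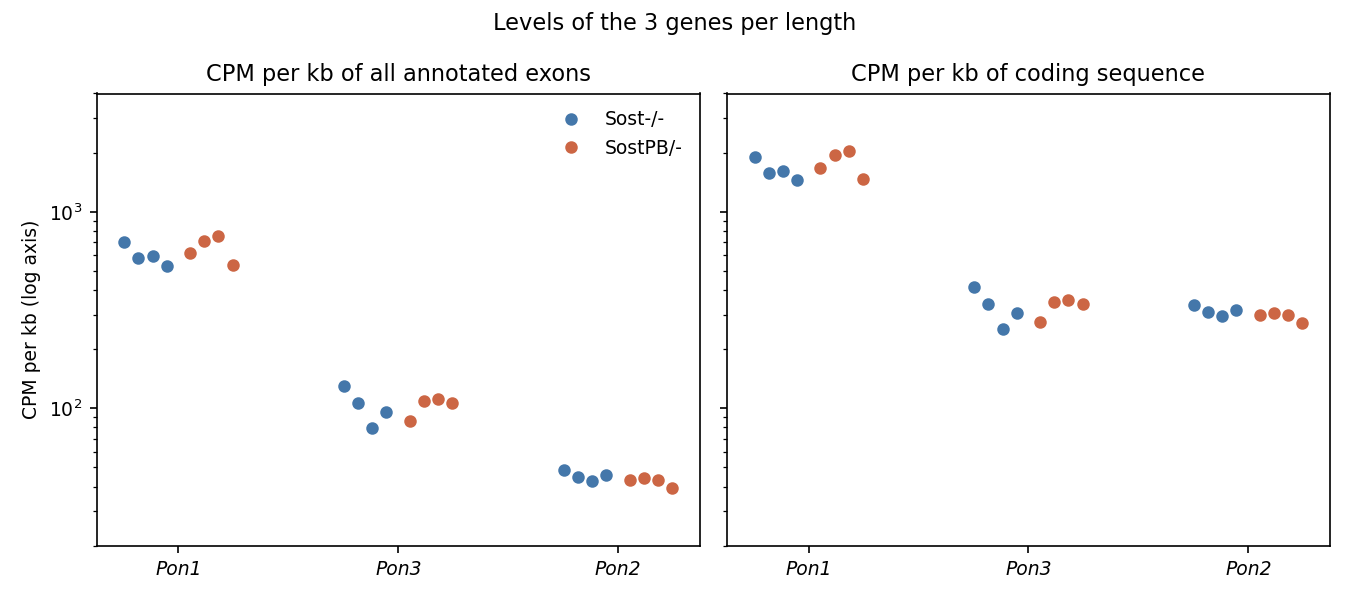
Each point is 1 library, in blue for Sost-/- and orange for SostPB/-, and the log axis gives CPM per kb of all annotated exons (left) or of coding sequence (right). Pon1 stands above the other two genes in both panels, while Pon3 and Pon2 are apart on the left (79.8 to 130.3 against 39.5 to 48.6) and overlap on the right.

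The comparison of SostPB/- with Sost-/- asks whether any paraoxonase differs between the genotypes, and 0 of the 3 passed edgeR's test, where 0 of 10020 rows (0%) passed over the whole table. At an unadjusted p under 0.05 edgeR had 646 rows (6.45%), and none of the 3 genes was among them. DESeq2 called 53 of the 12666 rows to which it gave an adjusted p (0.418%), and none of the 3 was among these either. The groups overlapped for all 3 genes, while SostPB/- lay wholly below Sost-/- in 2.19% of all rows tested and wholly above in 1.74%.

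Pon1, the secreted arylesterase of HDL, had 2035, 1686, 1722 and 1543 CPM in Sost-/- and 1782, 2065, 2174 and 1560 CPM in SostPB/-. Sost-/- replicate 1 and SostPB/- replicates 2 and 3 were the highest, and replicate 4 was the lowest of each group. The means were 1746 ± 207 CPM and 1895 ± 278 CPM (SD, n = 4). The difference was 0.12 in log2, SE 0.15 (edgeR adjusted p = 0.975). Its 95% interval ran from 0.857-fold to 1.37-fold.

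Pon3, the second hepatic member, had 441, 362, 270.1 and 325 CPM in Sost-/- and 291, 367, 379.6 and 362 CPM in SostPB/-. Sost-/- replicates 1 and 3 were the highest and the lowest of all 8 libraries, so the whole range of the gene was covered within 1 genotype. The means were 349.5 ± 71.8 CPM and 349.9 ± 40.2 CPM (SD, n = 4). In log2 the difference was 0.0014, SE 0.18 (edgeR adjusted p = 0.9998). Its 95% interval ran from 0.765-fold to 1.31-fold.

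Pon2, the intracellular member, had 357, 330.0, 313 and 335 CPM in Sost-/- and 316, 326, 317 and 289.8 CPM in SostPB/-. The values lay close together, and the 3 upper SostPB/- libraries fell between the lowest and the second lowest of Sost-/-. The means were 334 ± 18.0 CPM and 312 ± 15.4 CPM (SD, n = 4). SostPB/- stood at -0.10 in log2, SE 0.13 (edgeR adjusted p = 0.973). Its 95% interval ran from 0.771-fold to 1.13-fold. With TMM scaling the interval of each of the 3 genes leaves out a 1.5-fold change in either direction. This does not carry over to library totals, where the estimate for Pon2 was larger (-0.29, SE 0.15).

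**Figure D2:**
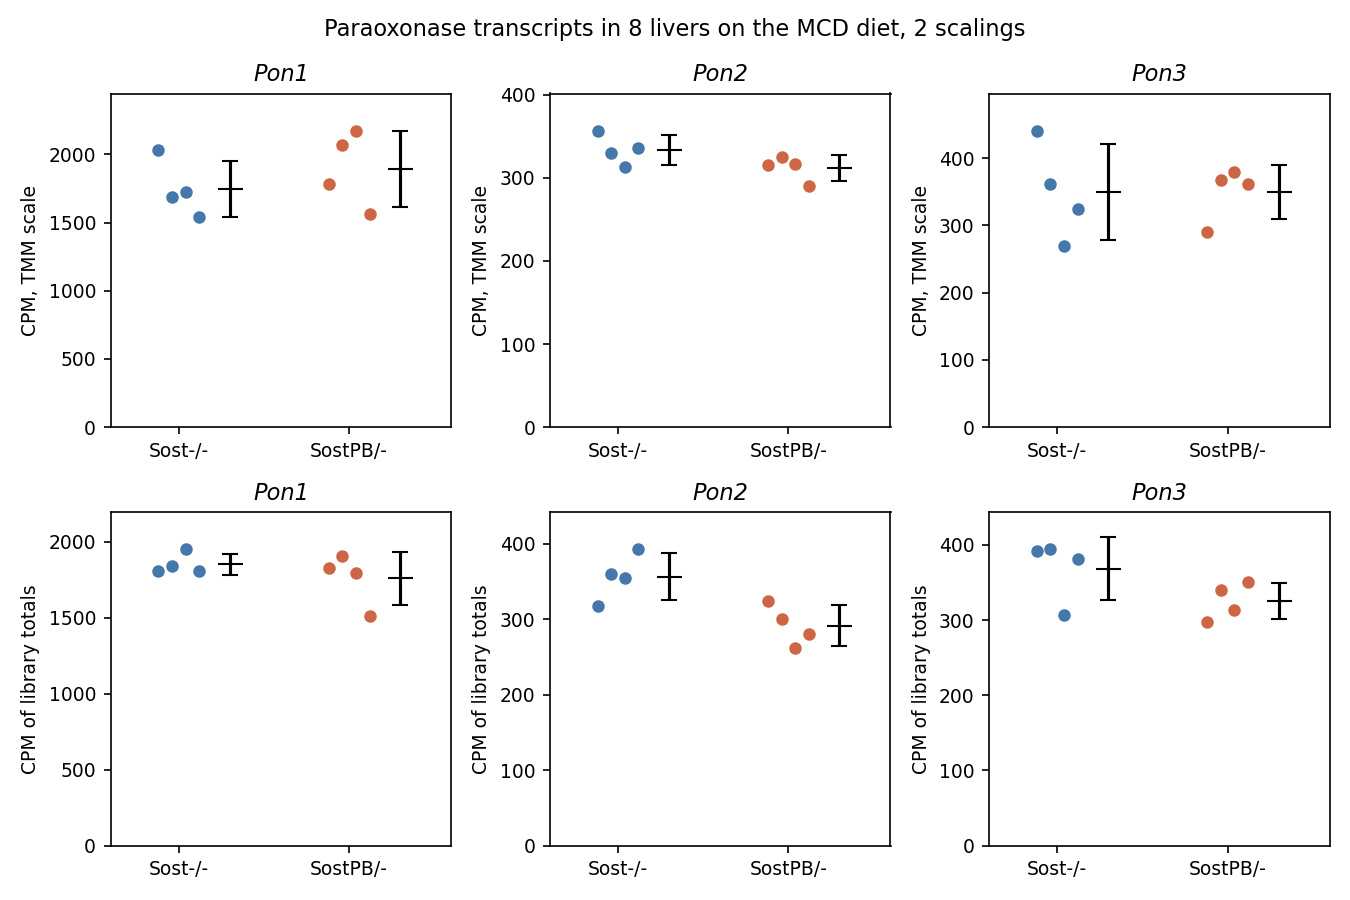
Points are libraries, and the bar beside each group is its mean with the SD (n = 4). The upper row shows CPM after TMM scaling and the lower row CPM of library totals; the genotypes overlap in all 6 panels, with the smallest overlap for Pon2 in the lower row (317 to 393 against 261 to 324).

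The direction of the estimates for Pon1 and Pon3 changed with the scaling, while Pon2 stayed below 0 under each scaling run. Mitochondrial transcripts took 51.9% ± 5.14 of counts in Sost-/- and 59.3% ± 3.92 in SostPB/- (SD, n = 4; exact permutation test, two-sided, p = 0.114). As a share of all counts the 3 genes together had 0.252%, 0.259%, 0.261% and 0.258% in Sost-/- and 0.245%, 0.255%, 0.237% and 0.214% in SostPB/-. That is 0.258% ± 0.00419 against 0.238% ± 0.0174, lower in SostPB/- but short of the threshold (exact permutation test, two-sided, p = 0.0571, where 0.0286 is the smallest p that 4 against 4 can give). As a share of nuclear counts the order of the means was the opposite, 0.540% ± 0.0542 in Sost-/- and 0.587% ± 0.0681 in SostPB/- (SD, n = 4; exact permutation test, p = 0.229). SostPB/- replicate 3, with the highest mitochondrial share of all libraries (64.3%), had 0.237% of all counts on the family but 0.664% of nuclear counts, the highest of the 8.

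Scaled by library totals alone, the 3 genes had log2 fold changes of -0.073 for Pon1, -0.29 for Pon2 and -0.18 for Pon3, none of which passed edgeR's test (adjusted p = 0.920, 0.701 and 0.782). Totals alone also moved the median of all tested rows, from -0.01 to -0.21. Relative to the median row, Pon1 stood at 0.13, Pon2 at -0.09 and Pon3 at 0.01 with TMM, and at 0.13, -0.08 and 0.03 with totals alone. A change of scaling moves all rows by nearly the same amount, so these positions are given to describe the shift only.

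**Figure D3:**
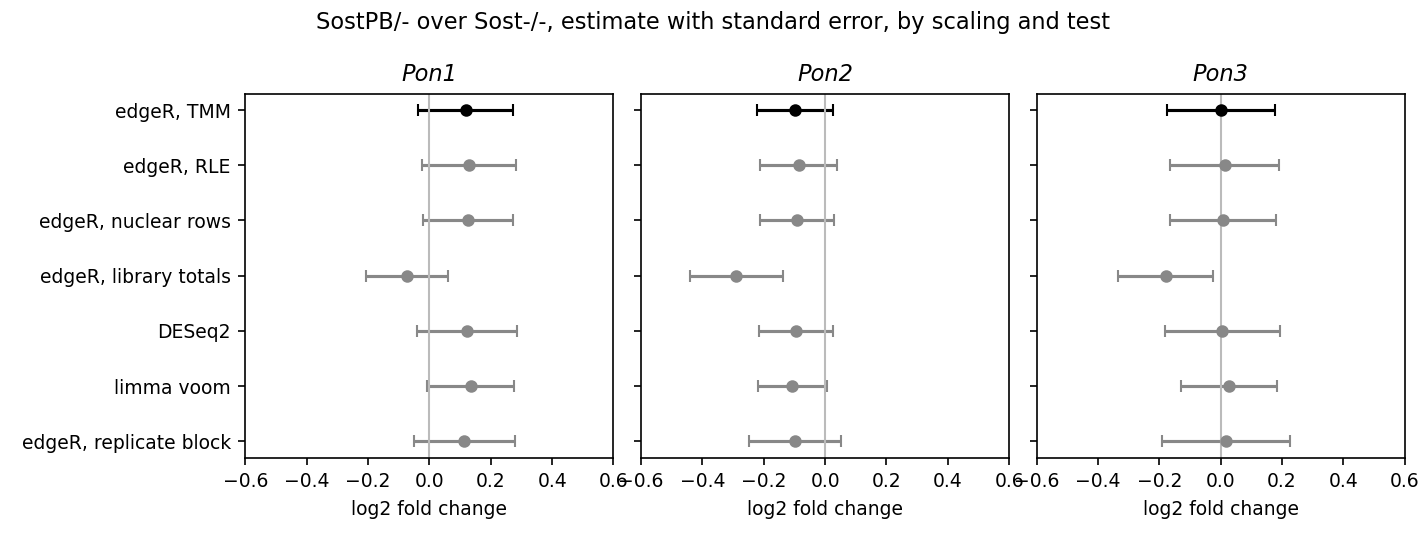
Points are log2 fold changes of SostPB/- over Sost-/- and bars their standard errors, for 7 combinations of scaling and test. For Pon2 every estimate lies below 0, while those of Pon1 and Pon3 lie at or above 0 except with library totals.

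Ratios between members within a library need no scaling. Pon1 over Pon2 was 5.70, 5.11, 5.50 and 4.60 in Sost-/- and 5.64, 6.34, 6.87 and 5.38 in SostPB/-, as ratios of counts. The groups overlapped, and 2 SostPB/- libraries lay above every Sost-/- library. The log2 ratio was 0.21 higher in SostPB/-, which did not pass the test (exact permutation test, two-sided, n = 4 per group, p = 0.143, adjusted over 3 ratios 0.429). Pon1 over Pon3 was 4.61, 4.66, 6.37 and 4.75 in Sost-/- and 6.13, 5.62, 5.73 and 4.31 in SostPB/-, a log2 difference of 0.10 (exact permutation test, p = 0.543, adjusted 0.543). Pon3 over Pon2 was 1.24, 1.10, 0.863 and 0.969 in Sost-/- and 0.920, 1.13, 1.20 and 1.25 in SostPB/-, a log2 difference of 0.11 (exact permutation test, p = 0.486, adjusted 0.543). Sost-/- replicate 3 had the lowest Pon3 of all libraries after TMM scaling, though not in counts or in CPM of library totals. Its Pon1 over Pon3 ratio stood apart from the other 3 of its group. Without it the log2 difference of that ratio was 0.21 (exact permutation test, adjusted p = 0.214), and without SostPB/- replicate 4, the lowest ratio of its group, it was also 0.21 (exact permutation test, adjusted p = 0.257). It shrank to 0.036 without SostPB/- replicate 1, 0.054 without Sost-/- replicate 1 and 0.058 without Sost-/- replicate 2.

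**Figure D4:**
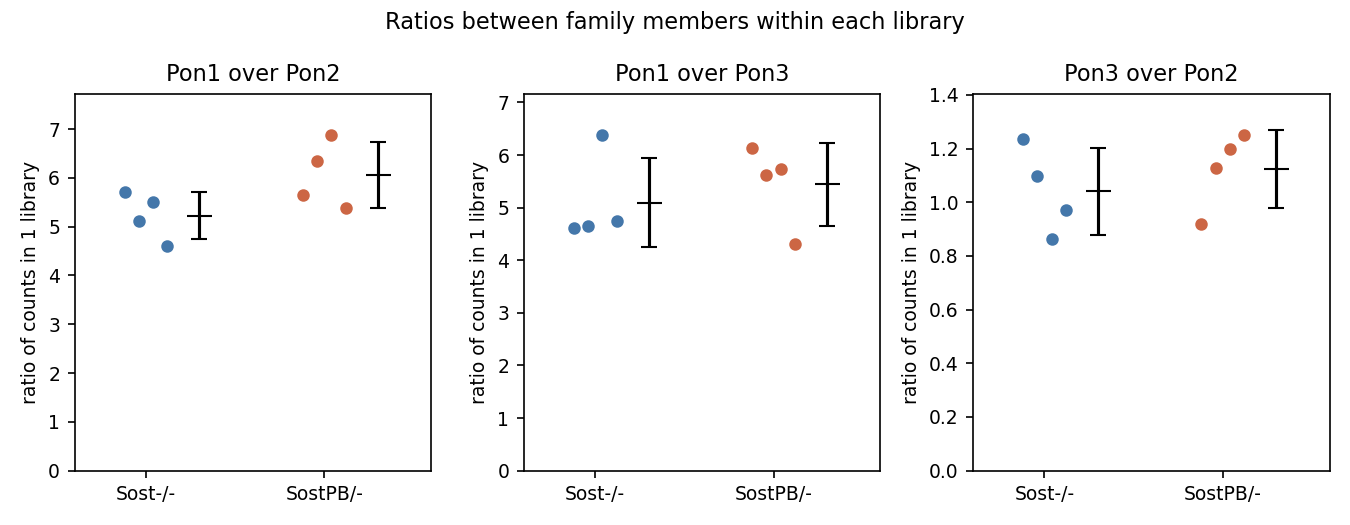
Each point is the ratio of the counts of 2 members in 1 library, with the mean and SD of each genotype (n = 4) beside it. The genotypes overlap for all 3 ratios, and Sost-/- replicate 3 is the single high point of its group for Pon1 over Pon3 (6.37 against 4.61 to 4.75).

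The members varied between mice by amounts whose order depended on the scaling. After TMM scaling, the coefficient of variation of CPM within a genotype was 5.40% and 4.93% for Pon2 in Sost-/- and SostPB/-, 11.9% and 14.7% for Pon1, and 20.5% and 11.5% for Pon3. From the lowest to the highest library Pon2 spanned 1.23-fold, Pon1 1.41-fold and Pon3 1.63-fold on this TMM scale. In CPM of library totals the order was another, with Pon2 the widest at 1.504-fold, Pon3 at 1.32-fold and Pon1 at 1.29-fold. The coefficients of variation were then 8.74% and 9.22% for Pon2 in Sost-/- and SostPB/-, 3.71% and 9.86% for Pon1, and 11.4% and 7.34% for Pon3. edgeR's biological coefficient of variation, the square root of the dispersion after moderation, was taken from the fit with TMM scaling only. It was 17.5% for Pon2, the second lowest of the 80 tested protein-coding rows on the stretch. It was 20.1% for Pon1 and 21.4% for Pon3, at ranks 21 and 28 from the lowest.

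Whether the members rise and fall together was measured over the 8 libraries in log2 CPM, for 3 pairs. Pearson's r was 0.48 between Pon1 and Pon3 (exact permutation p = 0.235, adjusted 0.407; Spearman's rho 0.55, p = 0.171, adjusted 0.449). It was 0.43 between Pon2 and Pon3 (exact permutation p = 0.286, adjusted 0.407; rho 0.43, p = 0.299, adjusted 0.449). It was 0.35 between Pon1 and Pon2 (exact permutation p = 0.407, adjusted 0.407; rho 0.07, p = 0.882, adjusted 0.882). Without the 2 libraries farthest from the median of the first gene, r was 0.40, 0.45 and 0.61 for these pairs in that order (n = 6, exact permutation, adjusted p = 0.432 each). In deviations from the genotype means r was 0.49, 0.56 and 0.72 (permutation, adjusted p = 0.216, 0.213 and 0.139, the last from an unadjusted 0.0464). Deviations cancel out within each genotype and were permuted across both, so these p-values are approximate and may be too small. All values were positive, none passed after adjustment, and all share the scaling of the library.

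Among the protein-coding rows of the stretch with a mean of at least 50 counts, the rows most like each member over the 8 libraries were ranked by Pearson's r of log2 CPM, given here as a description over 71 other rows that share libraries and scaling. For Pon1 the closest were Tnpo3, a nuclear import receptor (r = 0.90), the secreted protein gene Fam3c (0.73) and the forkhead factor Foxp2 (0.73), and the most opposed was Asns, asparagine synthetase (-0.81). For Pon3 the closest were Tmem106b, of the lysosomal membrane (0.96), the actin regulator Wasl (0.95) and Slc25a13, the mitochondrial aspartate and glutamate carrier citrin (0.91), and the most opposed was Atp6v1f, of the vacuolar proton pump (-0.91). For Pon2 the closest were Ube2h, a ubiquitin-conjugating enzyme (0.97), the actin capping gene Capza2 (0.73) and Aass, of lysine breakdown (0.70), and the most opposed was Lsm8, which binds U6 RNA (-0.81). No row was among the closest 3 for more than 1 member, but this depends on the cut at 3. Of the closest rows of Pon1 and Pon2, Capza2, Foxp2 and Tnpo3 had r = 0.81, 0.79 and 0.71 with Pon3. Ube2h, Fam3c and Aass had 0.49, 0.49 and 0.35 with it. The values of Tmem106b were 1842, 1474, 1089 and 1443 CPM for Sost-/-, then 1320, 1568, 1669 and 1631 CPM for SostPB/-. As for Pon3, Sost-/- replicate 1 was its highest library and Sost-/- replicate 3 its lowest.

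The genes around the cluster ranged from as steady as the family to far more variable. Of 9 other protein-coding genes within 1 Mb, 8 could be tested, 0 of these 8 passed edgeR's test, 3 had a positive and 5 a negative log2 fold change. Nearest to Pon1 lies Ppp1r9a, which encodes the actin-binding protein neurabin, at 25.7 ± 2.32 and 24.8 ± 2.56 CPM in Sost-/- and SostPB/- (SD, n = 4, log2 fold change -0.05, SE 0.16). Next to Pon2 lies Asb4, with 3.62 ± 1.96 and 2.99 ± 1.15 CPM (SD, n = 4). Beyond it lies Pdk4, whose product inhibits the pyruvate dehydrogenase complex during fasting. Pdk4 had 3538, 863, 4376 and 1281 CPM in Sost-/- and 679.9, 2300.1, 367 and 462 CPM in SostPB/-. Its highest library was 11.9-fold above its lowest, where Pon1 spanned 1.41-fold, and its log2 fold change of -1.40 (SE 0.65) did not pass (edgeR adjusted p = 0.785). Slc25a13, farther along, had 960.2 ± 130.02 and 938 ± 40.8 CPM (log2 fold change -0.03, SE 0.14). On the other side, the collagen gene Col1a2 had a log2 fold change of 0.23 (SE 0.23), the sialic acid acetyltransferase gene Casd1 0.15 (SE 0.15), Sgce -0.40 (SE 0.38) and the imprinted gene Peg10, at 1.05 and 2.25 CPM, 1.10 (SE 0.51). Dync1i1, with a mean of 1 count, was not tested.

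**Figure D5:**
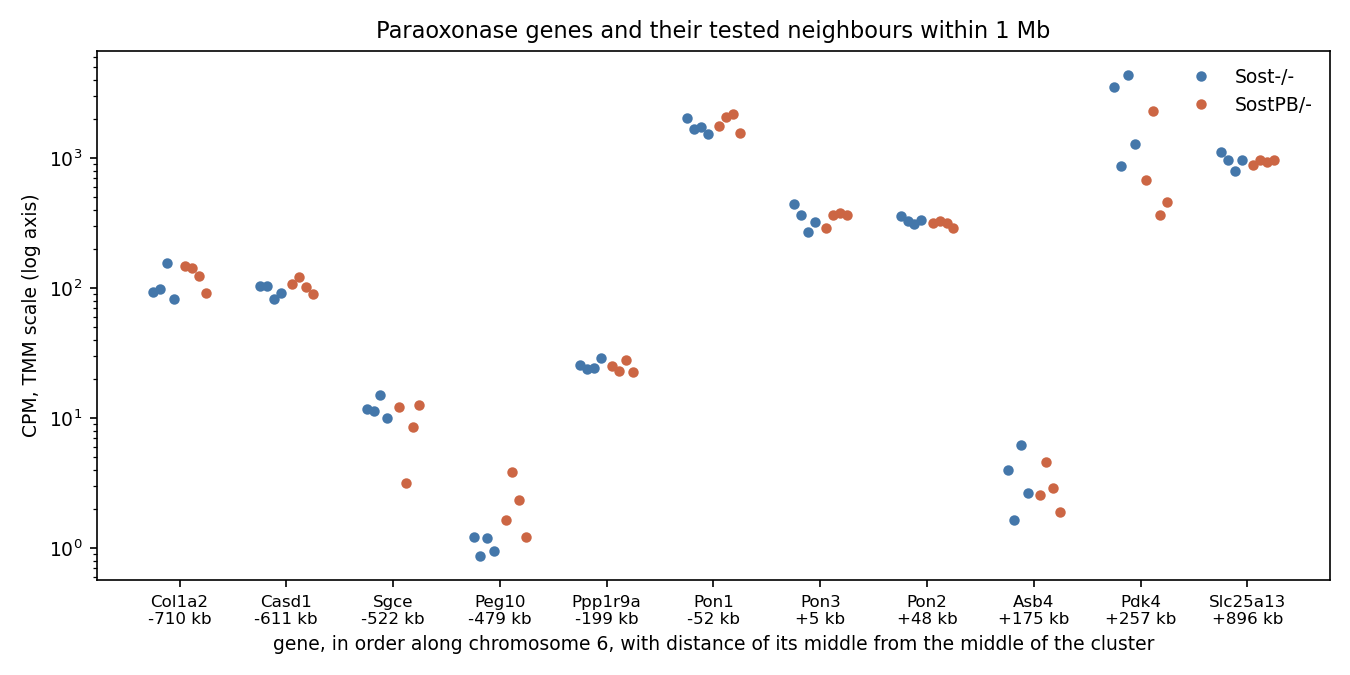
CPM of each library (log axis) for the paraoxonase genes and the 8 tested genes within 1 Mb, in order along the chromosome, with the distance of each gene from the middle of the cluster. Pdk4 spreads over 367 to 4376 CPM in the 8 libraries, while Pon1 stays between 1543 and 2174.

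The wider pathway of the paraoxonases could be read only in small part. Of 22 genes for HDL and its partners 1 lay in a stretch where names hold, of 21 genes of oxidative defence 1, and of 17 other esterases and lactonases, 17 regulators linked to paraoxonase transcription and 14 genes of homocysteine and methionine metabolism 0. Neither of the 2 readable genes passed in either direction. Abca1, the pump that loads cholesterol onto HDL, had 774, 938, 478 and 1026 CPM in Sost-/- and 755, 738, 935 and 815 CPM in SostPB/- (log2 fold change 0.01, SE 0.22, edgeR adjusted p = 0.998). Txn1, thioredoxin, had 274, 308, 543 and 400.3 CPM in Sost-/- and 364, 336, 313 and 378 CPM in SostPB/- (log2 fold change -0.13, SE 0.21, edgeR adjusted p = 0.981). In both genes the range was wider in Sost-/-, where replicate 3 was lowest in Abca1 and highest in Txn1. Both lie beyond 50 Mb on chromosome 4, where 34 of 73 protein-coding rows (46.6%) reached a mean of 100 counts, a lower share than on the chromosome 6 stretch.

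The tissue was checked against markers in the readable stretches. Of 11 hepatocyte markers 5 could be read (Cyp7a1, Baat, Slc25a13, Met and Aass), and their sum was 3132 to 4294 CPM in Sost-/- and 2983 to 4093 CPM in SostPB/-. None of the 5 passed edgeR's test, and the largest difference among them was that of Aass, at a log2 fold change of -0.40 (SE 0.14, edgeR adjusted p = 0.687). Its SostPB/- values (852 to 963 CPM) lay wholly below those of Sost-/- (1021 to 1381 CPM), as in 2.19% of all rows tested. Of the markers of other cells, Col1a2 of stellate cells ran from 82.6 to 157 CPM in Sost-/- and 91.7 to 148 CPM in SostPB/-, and Cav1 and Wnt2 of endothelium summed to 16.5 to 24.4 and 12.8 to 18.8 CPM. Within that sum the genes went opposite ways. Cav1 had a log2 fold change of 0.14 (SE 0.23, edgeR adjusted p = 0.981). Wnt2 had -1.13 (SE 0.74, edgeR adjusted p = 0.924), with means of 8.95 CPM in Sost-/- and 4.08 CPM in SostPB/-. The B cell gene Pax5 had at most 2.81 CPM in any library, and the biliary gene Cftr, with a mean of 10.6 counts, was not tested. No macrophage marker could be read. Wnt2 was at 0 in SostPB/- replicate 3. The groups overlapped in each of these sums, and their part in the paraoxonase values was not tested.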

How the data were processed

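Poly-A RNA from 8 livers was sequenced, 1 library per replicate. HISAT2, StringTie and DESeq2 are listed as tools, and mm10 as the build, in the submitters' processing notes, with no versions or roles. The authors deposited whole-number counts for 55416 rows, and a second table of 22883 rows whose deposited signal equals the counts over 1 size factor per library (100% of values whole within 0.001 after multiplication). Groups and replicate numbers come from the titles. All libraries are labelled biological replicates, so p-values measure the spread between them. No row lacked a gene name. Positions and exon lengths were taken from GENCODE M21 (GRCm38) by gene ID without version. The rows carry later versions than M21, so lengths are approximate.

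edgeR 4.0.16 in R 4.3.3 (filterByExpr with a minimum count of 10, TMM, glmQLFit, glmQLFTest) was fitted on all rows with Benjamini-Hochberg adjustment at 0.05; standard errors are the log2 fold change over the square root of F. Ratios and sums were tested by exact permutation of libraries. DESeq2 1.42.0, limma 3.58.1, other scalings, filters, lengths and leaving out libraries were alternatives. In simulated counts of this comparison (9493 rows tested) 13.7% of 95 rows changed 2-fold and 62.5% of 88 rows changed 4-fold were recovered, with 3 calls on unchanged rows. The changed rows were drawn at random from all tested rows, whose median dispersion was 0.124. Pon1, Pon2 and Pon3 had dispersions of 0.041, 0.031 and 0.046, so the shares recovered do not describe these genes. Within a group, libraries differed by more than sampling noise. The genes named besides the family are the neighbours within 1 Mb, the readable list members and the 3 closest and 1 most opposed rows per member. The members and lists were chosen with earlier results of these data known. Intervals cover the spread between libraries only.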

Additional observations from a re-analysis of the deposited data

Results flagged for a closer look

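Each set of 4 values of a genotype was examined for a library whose gap to its nearest neighbour took most of the range of the group. Of 62 sets, 2 held such a library, where chance gives about 1 in 20. Pon1 over Pon3 was 6.37 in Sost-/- replicate 3, against 4.61 to 4.75 in the other 3 libraries of the group. Pdk4 stood at 2300.1 CPM in SostPB/- replicate 2, against 367 to 679.9 CPM in the other 3.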

How the results depend on the processing

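None of the 3 genes passed the test under any alternative run, with adjusted p from 0.701 to 0.9999, and Pon2 stayed below 0 in all of them. With library totals alone the estimates turned to -0.073 for Pon1, -0.18 for Pon3 and -0.12 for the log2 summed level (exact permutation p = 0.0571), beside a median row at -0.21. Pon3 was at -0.015 without a filter on low counts. Leaving out each library in turn gave 0.04 to 0.20 for Pon1, -0.13 to -0.06 for Pon2, -0.10 to 0.13 for Pon3 and 0.01 to 0.15 for the log2 summed level. Pon3 turned below 0 in 5 of these 8 fits, with the lowest value without Sost-/- replicate 3. The differences in log2 ratio kept their sign, at 0.15 to 0.27 for Pon1 over Pon2, 0.04 to 0.21 for Pon1 over Pon3 and 0.03 to 0.21 for Pon3 over Pon2. Pon3 over Pon2 per length fell to a log2 ratio of 0.10 (exact sign-flip permutation, adjusted p = 0.195) with the coding sequence as the length, since the annotated exons of Pon2 are far longer than its coding part. The count of rows called was 53 with DESeq2, 2 without a filter, 1 with a stricter one (50 counts in 4 libraries), 1 with limma voom, and 0 to 4 when a library was left out, the most without Sost-/- replicate 1; the cause was not tested. The reads recovered from the second table, which holds the same counts over a size factor, only repeated the main fit, with 0 calls. Over all tested rows, the deviations of same-numbered libraries of the 2 genotypes were hardly correlated (-0.04 to 0.04, in 1 of 4 numbers the highest). These values cover all rows at once and could miss pairing in single genes. With the replicate block 0 rows were called, and the log2 fold changes were 0.11, -0.10 and 0.02 for Pon1, Pon2 and Pon3. Exact sign flips over 4 pairs cannot give a p under 0.125.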
